A study of Mus musculus with 16 samples.

Results

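The 9 genes described here encode the main parts of the machinery that moves calcium between the endoplasmic reticulum (ER), the cytosol, the mitochondria and the outside of a fibroblast. They were chosen by name, with earlier results of these data known. They are Atp2a2, Itpr1, Itpr2, Itpr3, Stim1, Stim2, Orai1, Atp2b1 and Mcu, 9 of the 56941 genes counted. All 9 passed the filter on low counts, which kept 16306 genes. The cells were fibroblasts cultured from explants of mouse gingiva (mGF), the connective tissue of the gum. They came from C57Bl6 mice of 3 to 6 months and were used between passages 2 and 8 in medium with 20% fetal bovine serum. All libraries carried the wild-type (WT) genotype. Bulk RNA was sequenced after 24 h in 4 groups of 4 libraries: BSA (control), the albumin that carries the fatty acid; IL-1β at 1 ng/mL; palmitate, a saturated fatty acid, at 200 µM on BSA; and palmitate + IL-1β at those same doses. The labels do not say whether the 4 libraries of a group came from separate mice or cultures, so p-values measure the spread between these libraries, which may be technical.

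The ER holds calcium at a far higher concentration than the cytosol. The pump SERCA2, product of Atp2a2, fills it, and the inositol trisphosphate (IP3) receptors, products of Itpr1, Itpr2 and Itpr3, release it when receptors at the cell surface activate phospholipase C. As the store empties, the sensors STIM1 and STIM2 in the ER membrane open the ORAI1 channel in the plasma membrane, which is called store-operated entry, while the plasma membrane pump PMCA1, product of Atp2b1, returns calcium to the outside and the mitochondrial uniporter, product of Mcu, takes part of it into mitochondria.

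RefSeq held a promoter window (250 bases before to 50 bases after a transcript start, GRCm38.p6) for 7 of the 9 genes, and none for Atp2a2 and Itpr1. The stretches before the start of 4 members that moved in these data are shown. The sensors Stim1 and Stim2, which moved in opposite directions in the libraries labelled palmitate, can thus be set side by side with Itpr2 and Mcu. The 250 bases before each start matched the gene's own GRCm39 chromosome exactly once on the gene's strand, and other chromosomes were not searched. Each stretch was then trimmed to end before the first annotated exon of its own gene. Capitals mark GC boxes (GGGCGG), matches to the NF-κB (κB) consensus (GGRNNNYYCC) and AP-1 sites (TGANTCA), searched on both strands. In these patterns R is A or G, Y is C or T and N is any base. The Stim1 stretch lies at chr7:101916776-101916978 on the plus strand, that of Stim2 at chr5:54155615-54155777 on the plus strand, that of Itpr2 at chr6:146403722-146403971 on the minus strand and that of Mcu at chr10:59452523-59452764 on the minus strand.
Stim1: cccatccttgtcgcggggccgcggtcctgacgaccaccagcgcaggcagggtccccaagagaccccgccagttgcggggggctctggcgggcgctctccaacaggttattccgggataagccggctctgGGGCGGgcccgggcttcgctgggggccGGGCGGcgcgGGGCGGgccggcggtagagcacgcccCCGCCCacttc
Stim2: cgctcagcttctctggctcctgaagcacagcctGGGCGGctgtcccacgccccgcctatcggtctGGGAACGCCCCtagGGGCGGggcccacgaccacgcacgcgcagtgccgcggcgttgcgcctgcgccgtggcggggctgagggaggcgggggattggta
Itpr2: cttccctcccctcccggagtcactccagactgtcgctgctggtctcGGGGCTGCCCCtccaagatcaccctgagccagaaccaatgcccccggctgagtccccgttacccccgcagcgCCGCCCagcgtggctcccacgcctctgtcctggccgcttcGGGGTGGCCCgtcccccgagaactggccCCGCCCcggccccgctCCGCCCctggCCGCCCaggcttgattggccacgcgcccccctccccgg
Mcu: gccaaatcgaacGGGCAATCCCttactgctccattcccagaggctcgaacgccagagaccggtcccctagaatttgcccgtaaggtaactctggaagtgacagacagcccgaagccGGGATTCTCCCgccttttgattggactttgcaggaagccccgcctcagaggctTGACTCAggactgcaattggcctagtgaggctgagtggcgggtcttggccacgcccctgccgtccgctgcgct

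The stretches differ in length, at 203 bases for Stim1, 163 for Stim2, 250 for Itpr2 and 242 for Mcu, so their counts cannot be compared directly. In the full windows of 300 bases Stim1 held 8 GC boxes and 0 κB matches, Stim2 3 and 2, Itpr2 5 and 4, and Mcu 0 and 3. The Stim1 stretch was 75.9% G or C and held 4 GC boxes with no match to the κB consensus. The Stim2 stretch was 73.6% G or C and held 2 GC boxes beside 2 overlapping κB matches. The Itpr2 stretch held 4 GC boxes and 3 κB matches, of which 2 overlapped. The Mcu stretch, at 59.9% G or C, held no GC box, 3 κB matches of which 2 overlapped, and the AP-1 site TGACTCA, the only AP-1 match in the 8 member windows (Atp2b1 has 2). Of all 32851 RefSeq windows of the same 300 bases, 35.7% held a GC box, 26.8% a κB match and 7.81% an AP-1 site. Their median content of G or C before the start was 52.4%, below that of each stretch shown, and the part of base composition in these matches was not tested. Neither Atp2b1 stretch nor that of Itpr3 is shown, because at most 14 of the 250 bases lie before an annotated exon of the gene itself. The Orai1 stretch of 156 bases, with 3 GC boxes and 1 κB match, is also not shown, and Orai1 was called in no comparison. Because the stretches were picked by which members moved, whether matches go with movement was not tested. These matches are letters in a window and no binding was measured.

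Between 21234789 and 92752515 counts fell on genes per library, with palmitate replicate 10 far above the next, at 35329711. A count of 3 corresponded to 0.0331 to 0.146 CPM (counts per 1000000 on library sizes scaled by the TMM factors of edgeR), and the member with the fewest counts, Orai1, had at least 141 in every library. All 16 libraries entered one edgeR quasi-likelihood fit, Benjamini-Hochberg adjustment covered the 16306 genes, and genes with an adjusted p under 0.05 were called. Summed fibroblast markers (Col1a1, Col1a2, Col3a1, Pdgfra, Pdgfrb, Thy1, Dcn, Lum) reached 24200 to 28340 CPM, while the epithelial, endothelial, leukocyte and Schwann cell lists each summed to at most 3.36 CPM in any library. Col1a1, Col1a2 and Col3a1 made up most of the fibroblast sum, at means of 14190, 6943 and 4954 CPM in BSA (control), while Lum had a mean of 1.82. Against BSA (control), 1 of the 8 fibroblast markers rose and 3 fell in the libraries labelled palmitate (19.8% and 17.5% of all genes). In those labelled IL-1β 2 rose and 1 fell (10.1% and 4.97%), and in palmitate + IL-1β 1 rose and 5 fell (24.8% and 22.5%). Adgre1 of macrophages and Sox10 of Schwann cells had 3 counts or fewer in every library. The striated muscle list summed to 23.7 to 24.6 CPM in BSA (control), 18.7 to 22.8 in the libraries labelled IL-1β, 17.3 to 18.7 in those labelled palmitate and 15.8 to 17.4 in palmitate + IL-1β, with Ckm and Myh4 at 3 counts or fewer throughout. Acta1 made up most of this sum, at a mean of 22.9, 19.3, 16.9 and 14.8 CPM in the same order. Ttn went the other way, from 0.324 ± 0.10 CPM in BSA (control) to 0.818 ± 0.05 in palmitate + IL-1β (SD, n = 4). Of the 3 genes of this list that were tested, 1 was higher and 1 lower in that comparison. The part of this list in the results was not tested. In bulk RNA, fewer cells of a type and less RNA per cell cannot be told apart.

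The single-agent groups went against their labels in most genes that fatty acids are known to raise. Most genes that IL-1 is known to raise were higher than in BSA (control) in both single-agent groups. Most of these were higher in the libraries labelled palmitate than in those labelled IL-1β. Of 14 tested targets of the fatty acid receptors (PPAR), 9 were higher and 1 lower in the libraries labelled IL-1β than in BSA (control), whereas 2 were higher and 8 lower in the libraries labelled palmitate. Compared directly, 11 of the 14 were lower and 0 higher in the libraries labelled palmitate than in those labelled IL-1β. Cpt1a, which admits fatty acids to mitochondria, stood at 112 ± 2.16 CPM (SD, n = 4) in BSA (control), 216 ± 8.05 in the libraries labelled IL-1β, 82.4 ± 4.03 in those labelled palmitate and 214 ± 7.45 in palmitate + IL-1β. Angptl4, an inhibitor of lipoprotein lipase, stood at 4.44 ± 1.35, 100.5 ± 3.40, 20.7 ± 2.68 and 154 ± 5.91 CPM (SD, n = 4) in the same order. The kinase Pdk4, the lipid droplet protein Plin2 and the oxidation enzyme Acadvl were also lower in the libraries labelled palmitate than in those labelled IL-1β, by 1.18, 0.75 and 0.14 on the log2 scale. Against BSA (control), at 32.8 ± 1.90 CPM, Pdk4 was higher in the libraries labelled palmitate, at 40.8 ± 1.19 (SD, n = 4), as was Angptl4.

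Of 16 targets of IL-1 and NF-κB, all were higher than in BSA (control) in the libraries labelled palmitate and 14 in those labelled IL-1β, and 13 were higher and 1, Ptgs2, lower in the libraries labelled palmitate than in those labelled IL-1β. Vcam1, an adhesion molecule, stood at 44.4 ± 3.66 CPM in BSA (control), 146 ± 5.79 in the libraries labelled IL-1β, 567 ± 13.5 in those labelled palmitate and 588 ± 20.0 in palmitate + IL-1β (SD, n = 4). The chemokines Cxcl5, Cxcl1 and Ccl2 were higher in the libraries labelled palmitate than in those labelled IL-1β by 4.30, 1.38 and 1.60 on the log2 scale. Whether the labels of these groups were exchanged was not tested, so every result below names these libraries by their label. The comparison of palmitate + IL-1β with BSA (control) uses neither single-agent group in its contrast, and the interaction has the same value whichever agent each of those groups received.

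**Figure D1:**
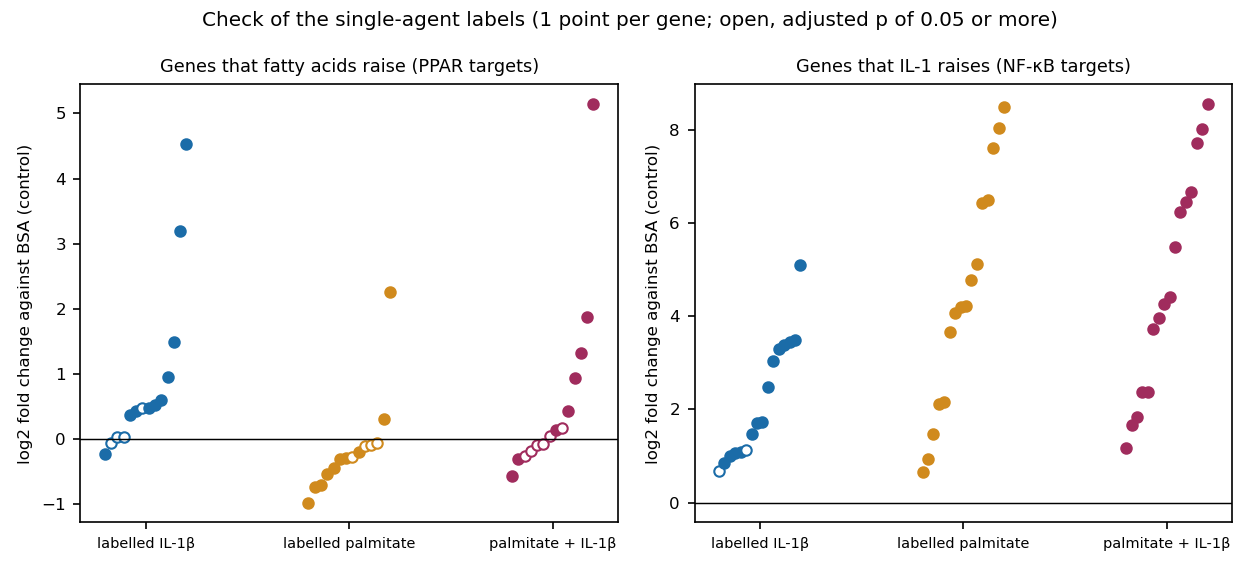
Log2 fold change against BSA (control) of PPAR target genes (left, 14 genes tested) and of IL-1 and NF-κB target genes (right, 16 genes), with a point per gene ordered by value and open points at an adjusted p of 0.05 or more. Most PPAR targets lie above 0 in the libraries labelled IL-1β and below 0 in those labelled palmitate, and Angptl4 is the highest of them in each group.

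The members moved in different directions. Relative to BSA (control), Atp2b1 and Stim2 rose and Stim1, Mcu, Itpr1 and Itpr3 fell in the libraries labelled palmitate, Atp2b1 alone was called in the libraries labelled IL-1β, and Atp2b1 and Itpr2 rose while Itpr3, Stim1 and Mcu fell in palmitate + IL-1β. The pump that fills the store, Atp2a2, and the entry pore, Orai1, were called in none of these comparisons. Atp2b1 was the only member called in all of them, and its change was the largest of the 9 in each.

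Atp2b1 (chr10:98750268-98862488, plus strand, GRCm39), the calcium pump of the plasma membrane, had 121, 122, 125 and 123 CPM in the BSA (control) libraries. It had 155, 159, 162 and 168 CPM in the libraries labelled IL-1β and 184, 185, 174 and 166 CPM in those labelled palmitate. It had 220, 223, 242 and 230 CPM in palmitate + IL-1β. Every treated library lay above every control library, and every palmitate + IL-1β library lay above all the rest. Against BSA (control), Atp2b1 rose 1.44-fold in the libraries labelled palmitate (log2 fold change 0.53, SE 0.04, adjusted p = 9.74e-12) and 1.31-fold in those labelled IL-1β (0.39, SE 0.04, adjusted p = 4.88e-08). In palmitate + IL-1β it rose 1.86-fold (log2 fold change 0.90, SE 0.04, adjusted p = 1.66e-17). Palmitate + IL-1β exceeded the libraries labelled IL-1β by 0.51 on the log2 scale (SE 0.04, adjusted p = 3.3e-11) and those labelled palmitate by 0.37 (SE 0.04, adjusted p = 2e-07). The interaction, which asks whether the change with both agents differs from the sum of the single changes on the log2 scale, was -0.02 (SE 0.06, interval of 2 SE -0.15 to 0.10, adjusted p = 0.945). In the direct comparison, the libraries labelled palmitate exceeded those labelled IL-1β by 0.14 (SE 0.04, adjusted p = 0.0127), and without palmitate replicate 10 this difference was 0.12 with an adjusted p of 0.0673.

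Stim1 (chr7:101916979-102086526, plus strand), the sensor that responds to a strongly emptied store, had 89.2, 89.3, 96.2 and 88.3 CPM in BSA (control) and 85.6, 86.0, 92.3 and 87.5 CPM in the libraries labelled IL-1β. It had 77.8, 72.95, 72.2 and 68.3 CPM in the libraries labelled palmitate and 79.8, 80.1, 84.3 and 85.6 CPM in palmitate + IL-1β. The libraries labelled palmitate were below all others, and those of palmitate + IL-1β lay between them and the controls. Stim1 fell by 0.32 on the log2 scale in the libraries labelled palmitate (SE 0.05, adjusted p = 8.4e-07) and by 0.14 in palmitate + IL-1β (SE 0.04, adjusted p = 0.0114). In the libraries labelled IL-1β the difference was -0.05 (SE 0.05, adjusted p = 0.555). Stim1 was higher by 0.18 in palmitate + IL-1β than in the libraries labelled palmitate (SE 0.05, adjusted p = 0.00795). The call in palmitate + IL-1β was lost without BSA replicate 3, the highest control library (-0.11, adjusted p = 0.0557), and the call against the libraries labelled palmitate was lost without palmitate replicate 12, the lowest (0.15, adjusted p = 0.0513).

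Stim2 (chr5:54155778-54278399, plus strand), the sensor that responds to small losses from the store, had 51.2, 49.0, 49.5 and 49.4 CPM in BSA (control) and 50.6, 52.1, 50.8 and 49.5 CPM in the libraries labelled IL-1β. It had 57.5, 59.2, 53.9 and 52.7 CPM in the libraries labelled palmitate and 53.3, 51.4, 50.9 and 58.3 CPM in palmitate + IL-1β. The libraries labelled palmitate lay above every control and every IL-1β-labelled library, whereas those of palmitate + IL-1β overlapped the controls. Stim2 rose by 0.17 on the log2 scale in the libraries labelled palmitate (SE 0.05, adjusted p = 0.006), a call that upper-quartile normalization removed (0.10, adjusted p = 0.0998). In palmitate + IL-1β the difference was 0.10 (SE 0.05, interval 0.01 to 0.20, adjusted p = 0.0819), 0.13 without palmitate+IL-1b replicate 15 (adjusted p = 0.0459) and 0.06 without replicate 16 (adjusted p = 0.319). For the libraries labelled IL-1β it was 0.03 (SE 0.05, adjusted p = 0.769).

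Within each library, the ratio of Stim2 to Stim1 per kilobase of exon was 1.10 ± 0.05 (SD, n = 4) in BSA (control), 1.16 ± 0.05 in the libraries labelled IL-1β, 1.54 ± 0.07 in those labelled palmitate and 1.30 ± 0.07 in palmitate + IL-1β. The libraries labelled palmitate and those of palmitate + IL-1β lay above every control library, and the mean ratio was 1.40 times and 1.18 times that of BSA (control). Which sensor was the more abundant depended on the length used, since with the length of the canonical transcript the ratio was 0.494 in BSA (control) and 0.691 in the libraries labelled palmitate. A ratio within a library shows unequal change and not which gene changed.

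The interaction for Stim1 was 0.23 (SE 0.06, interval 0.10 to 0.35, adjusted p = 0.0619), the only interaction among the members whose interval left out 0. It was not called, and the 8 other members had adjusted p between 0.722 and 0.992. Of all genes tested, 1.99% had a called interaction. The Stim1 interaction passed the threshold under 4 of 23 alternatives, which were upper-quartile normalization, at least 10 counts in every library, DESeq2 and leaving out palmitate replicate 9.

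Orai1 (chr5:123153043-123168535, plus strand), the pore of store-operated entry, was the least abundant member. It had 6.30, 6.91, 6.03 and 6.05 CPM in BSA (control) and 5.77, 6.13, 5.57 and 6.13 CPM in the libraries labelled IL-1β. It had 6.90, 6.37, 6.39 and 8.46 CPM in the libraries labelled palmitate and 6.03, 5.86, 7.01 and 6.00 CPM in palmitate + IL-1β. Every treated group overlapped the controls. The differences from BSA (control) were 0.13 (SE 0.10, interval -0.06 to 0.33, adjusted p = 0.312) in the libraries labelled palmitate, -0.10 (SE 0.10, interval -0.31 to 0.10, adjusted p = 0.568) in those labelled IL-1β and -0.02 (SE 0.10, interval -0.22 to 0.18, adjusted p = 0.87) in palmitate + IL-1β. Without palmitate replicate 12, the highest library, the first of these was 0.04 (adjusted p = 0.785). With 141 to 578 counts per library the intervals are wide, and a rise of the size of that of Stim2 lies inside the one for the libraries labelled palmitate. All libraries labelled palmitate lay above those labelled IL-1β (0.24, SE 0.10, adjusted p = 0.0743), and without palmitate replicate 10 the difference was 0.30 with an adjusted p of 0.0486.

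Atp2a2 (chr5:122591575-122640903, minus strand), the SERCA2 pump, had 474, 463, 532 and 484 CPM in BSA (control) and 464, 495, 518 and 534 CPM in the libraries labelled IL-1β. It had 515, 486, 481 and 509 CPM in the libraries labelled palmitate and 521, 524, 506 and 479 CPM in palmitate + IL-1β. All groups overlapped. The differences from BSA (control) were 0.03 (SE 0.05, interval -0.07 to 0.12, adjusted p = 0.692) in the libraries labelled palmitate, 0.04 (SE 0.05, interval -0.05 to 0.14, adjusted p = 0.634) in those labelled IL-1β and 0.06 (SE 0.05, interval -0.04 to 0.15, adjusted p = 0.358) in palmitate + IL-1β. Without BSA replicate 3, the highest control library, they were 0.07 (adjusted p = 0.257), 0.09 (adjusted p = 0.246) and 0.10 (adjusted p = 0.0856). On the opposite strand, the unclassified gene Gm43361 covers 26.2% of the Atp2a2 exons, and counting was by strand. The ratio of Atp2a2 to Atp2b1 per kilobase of exon went from 5.39 ± 0.26 (SD, n = 4) in BSA (control) to 4.23 ± 0.13 in the libraries labelled IL-1β, 3.82 ± 0.26 in those labelled palmitate and 3.01 ± 0.21 in palmitate + IL-1β. Each treated group lay wholly below the controls in this ratio.

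Itpr1 (chr6:108190048-108528070, plus strand) had 206, 202, 224 and 215 CPM in BSA (control) and 230, 225, 233 and 261 CPM in the libraries labelled IL-1β. It had 199, 195, 169 and 180 CPM in the libraries labelled palmitate and 197, 199, 231 and 190 CPM in palmitate + IL-1β. The libraries labelled IL-1β lay above the controls and those labelled palmitate lay below them, while those of palmitate + IL-1β overlapped them. Itpr1 fell by 0.19 on the log2 scale in the libraries labelled palmitate (SE 0.06, adjusted p = 0.0175), and this call was lost without BSA replicate 3 (-0.16, adjusted p = 0.0661), without palmitate replicate 11 (-0.14, adjusted p = 0.0722) or without palmitate replicate 12 (-0.17, adjusted p = 0.0525). Against BSA (control) the libraries labelled IL-1β differed by 0.16 (SE 0.06, adjusted p = 0.0745), past the threshold without palmitate+IL-1b replicate 15 (adjusted p = 0.0265) and in a fit of the 8 libraries compared (adjusted p = 0.0406). Palmitate + IL-1β differed from BSA (control) by -0.05 (SE 0.06, adjusted p = 0.518), and without replicate 15 by -0.12 (adjusted p = 0.0912). The libraries labelled palmitate were below those labelled IL-1β by 0.35 (log2 fold change -0.35, SE 0.06, adjusted p = 7.28e-05), and those of palmitate + IL-1β were below them by 0.21 (log2 fold change -0.21, SE 0.06, adjusted p = 0.00749), with overlap through replicate 15.

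Itpr2 (chr6:146009797-146403721, minus strand), the IP3 receptor with the highest affinity for its ligand, had 69.4, 66.9, 65.6 and 71.2 CPM in BSA (control) and 74.3, 72, 74.4 and 91.9 CPM in the libraries labelled IL-1β. It had 82.97, 89.4, 70.6 and 77.7 CPM in the libraries labelled palmitate and 83.9, 82, 109 and 84.2 CPM in palmitate + IL-1β. Only a library of the group labelled palmitate, replicate 11, reached down into the control range. Itpr2 rose 1.31-fold in palmitate + IL-1β (log2 fold change 0.39, SE 0.10, adjusted p = 0.00532), and without replicate 15, the highest library, the difference was 0.29 with an adjusted p of 0.00442. In the libraries labelled palmitate it was 0.24 (SE 0.10, interval 0.03 to 0.44, adjusted p = 0.0887) and in those labelled IL-1β 0.19 (SE 0.10, interval -0.01 to 0.40, adjusted p = 0.252). Without IL-1b replicate 8, the highest library, the latter was 0.11 (adjusted p = 0.551). IL-1b replicate 8 and palmitate+IL-1b replicate 15 were also left out together, a pair picked after their high Itpr2 values were seen. Both enter the estimate of spread that all comparisons share, so adjusted p values without both are no independent support. Without both, the difference in the libraries labelled palmitate, a comparison that holds neither, was again 0.24 with an adjusted p of 0.000371. That in the libraries labelled IL-1β was then 0.11 with an adjusted p of 0.236. Palmitate + IL-1β exceeded the libraries labelled IL-1β by 0.20 (SE 0.10, adjusted p = 0.149), by 0.29 without IL-1b replicate 8 (adjusted p = 0.0292), by 0.10 without palmitate+IL-1b replicate 15 (adjusted p = 0.376) and by 0.18 without both (adjusted p = 0.0182).

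Itpr3 (chr17:27275971-27343866, plus strand), the form often placed at contacts between ER and mitochondria, had 197, 196, 215 and 207 CPM in BSA (control) and 188, 199, 207 and 224 CPM in the libraries labelled IL-1β. It had 185, 193, 170 and 167 CPM in the libraries labelled palmitate and 161, 163, 184 and 160 CPM in palmitate + IL-1β. Both groups whose labels name palmitate lay wholly below the controls. Itpr3 fell by 0.19 on the log2 scale in the libraries labelled palmitate (SE 0.06, adjusted p = 0.00789) and by 0.29 in palmitate + IL-1β (SE 0.06, adjusted p = 8.92e-05), whereas in the libraries labelled IL-1β the difference was 0.00 (SE 0.06, adjusted p = 0.973). Palmitate + IL-1β was also below the libraries labelled IL-1β by 0.29 (log2 fold change -0.29, SE 0.06, adjusted p = 0.000118), and the libraries labelled palmitate were below them by 0.19 (log2 fold change -0.19, SE 0.06, adjusted p = 0.00832).

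Per kilobase of exon, Itpr2 made up 12.9% ± 0.71 (SD, n = 4) of the 3 IP3 receptor genes in BSA (control), 13.9% ± 0.67 in the libraries labelled IL-1β, 16.5% ± 0.62 in those labelled palmitate and 18.1% ± 0.92 in palmitate + IL-1β. The last 2 groups lay above every control library. The share of Itpr3 was 51.9% ± 0.40 in BSA (control) and 45.6% ± 0.87 in palmitate + IL-1β, and in each treated group it lay below every control library. The share of Itpr1 was 35.2% ± 0.36 in BSA (control). It lay wholly below the controls in the libraries labelled palmitate, at 33.8% ± 0.79, and wholly above them in those labelled IL-1β, at 37.2% ± 0.70, and in palmitate + IL-1β, at 36.4% ± 0.43. The size of these shares depended on the length used. With the canonical transcript length, Itpr3 and Itpr1 made up 45.5% and 43.0% in BSA (control). In the libraries labelled IL-1β they then made up 42.6% and 45.0%.

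**Figure D2:**
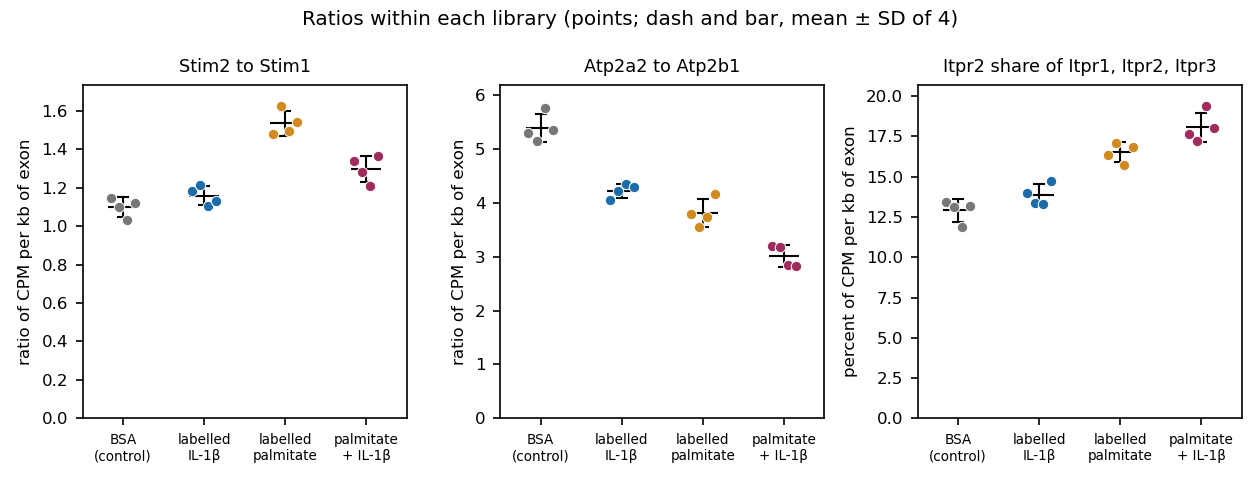
Ratios within each library, with a point per library and the mean ± SD of 4, for Stim2 to Stim1 (left), Atp2a2 to Atp2b1 (middle) and the percent share of Itpr2 among the 3 IP3 receptor genes (right), each from CPM per kilobase of exon. The libraries labelled palmitate have the highest Stim2 to Stim1 ratio, at 1.54 on average, and palmitate + IL-1β has the lowest Atp2a2 to Atp2b1 ratio, at 3.01, and the highest Itpr2 share, at 18.1%.

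Mcu (chr10:59282806-59452522, minus strand), the pore of mitochondrial calcium uptake, had 44.5, 46.5, 45.1 and 44.3 CPM in BSA (control) and 49.4, 46.5, 46.9 and 44.9 CPM in the libraries labelled IL-1β. It had 37.1, 38.0, 40.7 and 42.2 CPM in the libraries labelled palmitate and 40.9, 40.3, 42.2 and 40.0 CPM in palmitate + IL-1β. Both groups whose labels name palmitate lay wholly below the other libraries. Mcu fell by 0.19 on the log2 scale in the libraries labelled palmitate (SE 0.05, adjusted p = 0.00155) and by 0.14 in palmitate + IL-1β (SE 0.05, adjusted p = 0.0139), and the difference in the libraries labelled IL-1β was 0.06 (SE 0.05, interval -0.04 to 0.15, adjusted p = 0.488). Palmitate + IL-1β was below the libraries labelled IL-1β by 0.20 (log2 fold change -0.20, SE 0.05, adjusted p = 0.00135). The ratio of Mcub, the paralog that forms inactive pores, to Mcu per kilobase of exon was 2.60 ± 0.29 (SD, n = 4) in BSA (control), 2.25 ± 0.19 in the libraries labelled IL-1β, 3.31 ± 0.29 in those labelled palmitate and 3.04 ± 0.19 in palmitate + IL-1β. In this ratio only the libraries labelled palmitate lay wholly above the controls, and Mcub itself was not called in any group against BSA (control), with an adjusted p of 0.0797 in the libraries labelled palmitate. Which gene was the more abundant depended on the length used. With the canonical transcript length the ratio of Mcub to Mcu was 0.695 in BSA (control) and 0.883 in the libraries labelled palmitate.

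**Figure D3:**
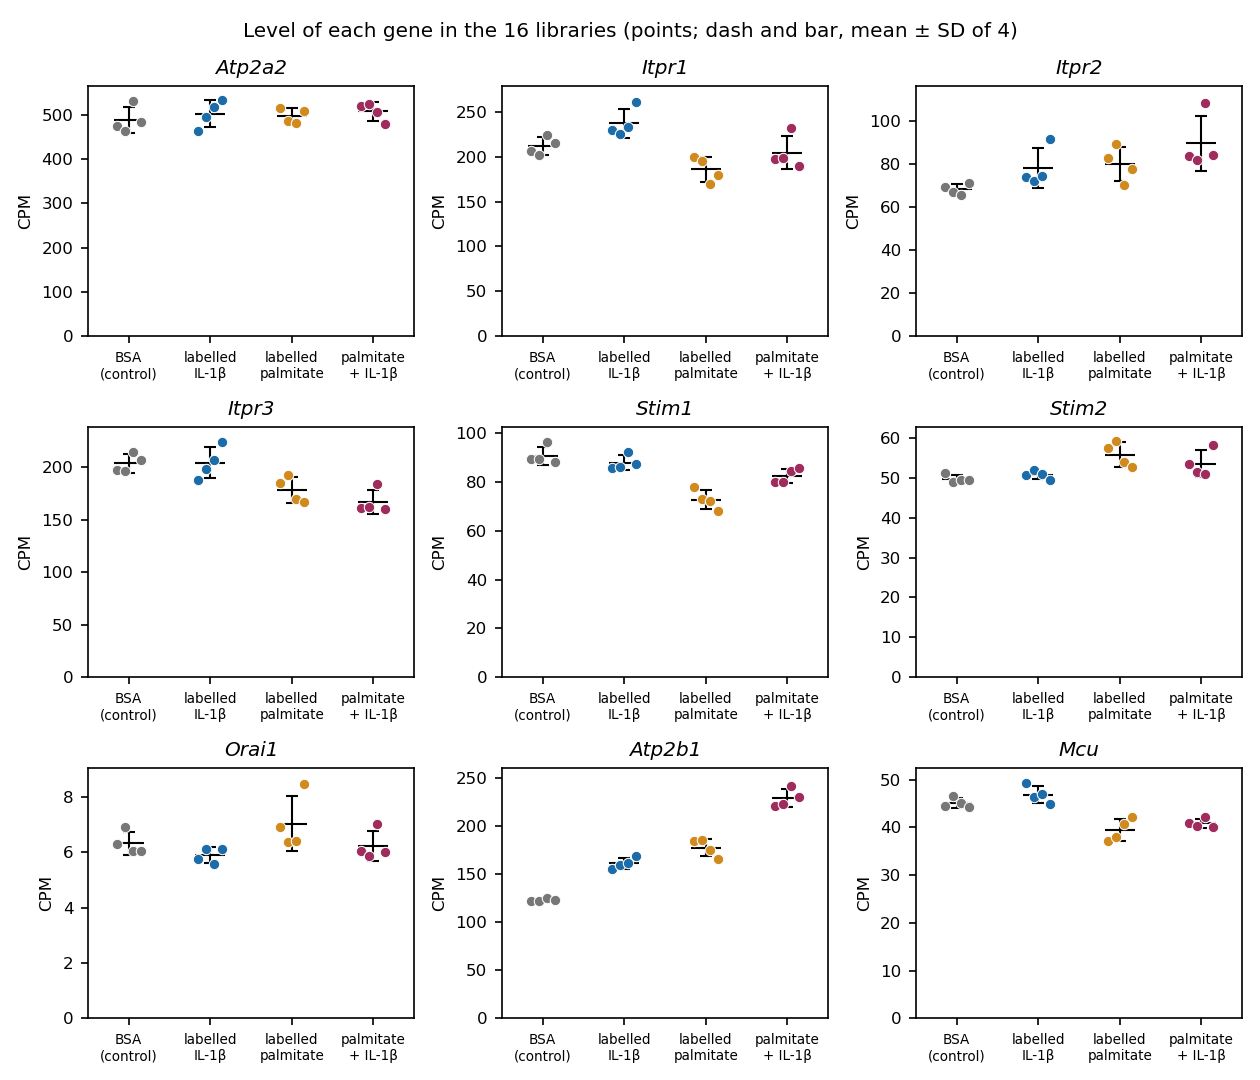
CPM of each of the 9 genes in every library, with a point per library in 4 groups and the mean ± SD of 4 as a dash and bar. All axes start at 0. Atp2b1 separates the groups most clearly, from 121 to 125 CPM in BSA (control) to 220 to 242 CPM in palmitate + IL-1β, while Atp2a2 stays between 463 and 534 CPM throughout.

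Of the 9 members, 6 were called in the libraries labelled palmitate against BSA (control), where 37.3% of all tested genes were called. Of these, 2 rose (19.8% of all genes did) and 4 fell (17.5% of all genes did), and the libraries of 6 members did not overlap the controls, as was so for 36.0% of all genes. Only 1 of 9 was called in the libraries labelled IL-1β (15.1% of all genes), in the upward direction (10.1% of all genes rose and 4.97% fell), and 3 members did not overlap the controls (17.6% of all genes). In palmitate + IL-1β, 5 of 9 were called (47.3% of all genes). Of these, 2 rose (24.8% of all genes) and 3 fell (22.5% of all genes), and 5 members did not overlap the controls (41.5% of all genes). A fit of only the 8 libraries of palmitate + IL-1β and BSA (control) also called 5 members, with Atp2b1 at 0.89 and Itpr3 at -0.29. These comparisons share the control libraries. The median of the members' absolute log2 fold change was 0.19, 0.06 and 0.14 in the libraries labelled palmitate, those labelled IL-1β and palmitate + IL-1β, beside 0.19, 0.13 and 0.24 over all genes tested. With upper-quartile normalization the share of all called genes that were higher was 37.1% in place of 53.1% in the libraries labelled palmitate, 43.5% in place of 67.1% in those labelled IL-1β and 38.7% in place of 52.4% in palmitate + IL-1β.

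Between treated groups, 4 members were called in palmitate + IL-1β against the libraries labelled IL-1β (35.0% of all genes), of which Atp2b1 rose (18.9% of all genes) and Itpr1, Itpr3 and Mcu fell (16.1% of all genes). Against the libraries labelled palmitate, Atp2b1 and Stim1 were higher in palmitate + IL-1β (9.81% of all genes were called, 5.71% higher and 4.10% lower). Between the single-agent groups, 6 members were called (31.6% of all genes). Atp2b1 and Stim2 were higher (16.5% of all genes) and Itpr1, Itpr3, Stim1 and Mcu lower (15.2% of all genes) in the libraries labelled palmitate than in those labelled IL-1β.

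**Figure D4:**
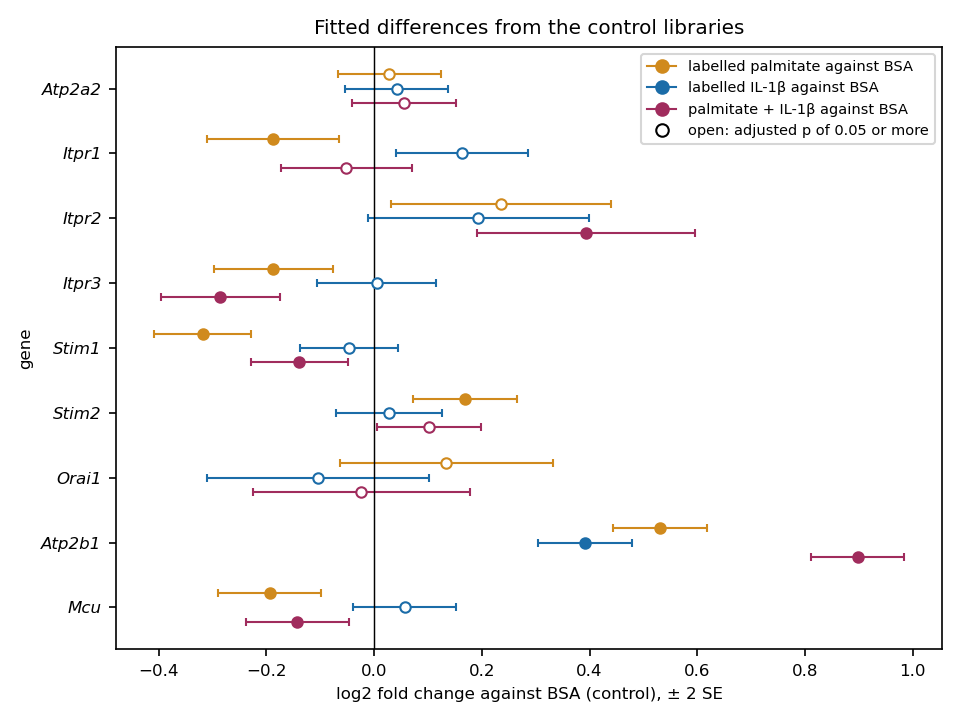
Log2 fold change against BSA (control) of the 9 genes in the libraries labelled palmitate, those labelled IL-1β and palmitate + IL-1β, with bars of 2 SE and open points at an adjusted p of 0.05 or more. Atp2b1 lies farthest from 0 in each group, at 0.53, 0.39 and 0.90, and Atp2a2 lies within 0.06 of 0 in each.

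Per kilobase of exon, Atp2a2 had the highest mean level of the 9 in every group and Orai1 the lowest, at 39.9 ± 2.47 and 2.42 ± 0.16 CPM per kilobase (SD, n = 4) in BSA (control), and both places held with the canonical transcript length. In BSA (control) the order between them was Itpr3, Itpr1, Stim2, Stim1, Atp2b1, Itpr2 and Mcu, and no neighbours overlapped. Stim2 and Atp2b1 overlapped in the libraries labelled IL-1β. Among those labelled palmitate, Stim2 (10.1 to 11.4 CPM per kilobase), Atp2b1 (9.97 to 11.2) and Itpr1 (9.23 to 10.9) overlapped one another, as did Mcu and Orai1. In palmitate + IL-1β, Itpr3 (13.4 to 15.4) overlapped Atp2b1 (13.3 to 14.6), and Itpr1 overlapped Stim2. Atp2b1 was the 6th of the 9 in BSA (control) and the 3rd in palmitate + IL-1β, and with the canonical length it was the 6th and the 2nd. The order of the middle genes changed with the length chosen: Mcu was the 8th of 9 in BSA (control) with all exons and the 5th with its canonical transcript.

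Other genes of calcium handling were taken from 10 lists of 132 genes, also chosen with earlier results of these data known. Tested were 113 of them. Among these, 24 rose and 29 fell in the libraries labelled palmitate (46.9% called, beside 37.3% of all genes tested), in those labelled IL-1β 8 rose and 10 fell (15.9% called, beside 15.1%), and in palmitate + IL-1β 29 rose and 35 fell (56.6% called, beside 47.3%). Over all genes tested, 19.8% rose and 17.5% fell in the libraries labelled palmitate, 10.1% and 4.97% in those labelled IL-1β, and 24.8% and 22.5% in palmitate + IL-1β, and the counts of each list below are to be read against these shares. The interaction was called for 2 of the 113, Itpripl2 (-0.31, adjusted p = 0.00446) and Nfatc1 (-0.39, adjusted p = 0.00255), beside 1.99% of all genes. The median log2 fold change of each list lay between -0.18 and 0.11 in these comparisons, beside 0.00 over all genes in each.

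Of 3 tested ER or Golgi pumps and regulators (Atp2a3, Atp2c1, Tmco1), 0 were called in any comparison with BSA (control) by edgeR, 0 had an unadjusted p under 0.05 and DESeq2 called 0. Of 6 tested extrusion genes, 2 rose and 1 fell in the libraries labelled palmitate, 2 rose in those labelled IL-1β, and 3 rose and 2 fell in palmitate + IL-1β. Atp2b4, the pump PMCA4 and a paralog of Atp2b1, rose from 141 ± 9.88 CPM in BSA (control) to 426 ± 26.7 in the libraries labelled palmitate (3.01-fold, SD, n = 4, adjusted p = 4.87e-14), to 174 ± 20.3 in those labelled IL-1β and to 406 ± 19.3 in palmitate + IL-1β. The sodium-calcium exchanger Slc8a1 rose in all 3 groups, 1.30-fold in the libraries labelled palmitate and in those labelled IL-1β, and 1.49-fold in palmitate + IL-1β. The potassium-dependent exchanger Slc24a3 fell from 20.9 ± 0.85 CPM to 8.55 ± 0.61 in the libraries labelled palmitate and 8.92 ± 1.26 in palmitate + IL-1β (SD, n = 4). In a ratio chosen after its values were seen, Atp2b4 to Atp2b1 per kilobase of exon was 1.54 ± 0.09 in BSA (control), 1.44 ± 0.12 in the libraries labelled IL-1β, 3.22 ± 0.18 in those labelled palmitate and 2.38 ± 0.11 in palmitate + IL-1β (SD, n = 4). With the canonical transcript length this ratio was 0.810, 0.757, 1.69 and 1.25 in the same order. Which pump gene was the more abundant in BSA (control) and in the libraries labelled IL-1β therefore depended on the length used. Atp2b4 differed by -0.07 between palmitate + IL-1β and the libraries labelled palmitate (SE 0.07, adjusted p = 0.613), where Atp2b1 differed by 0.37.

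Of 12 partners of store-operated entry, 1 rose and 1 fell in the libraries labelled palmitate, 1 rose in those labelled IL-1β, and 3 rose and 3 fell in palmitate + IL-1β. Orai2, another pore subunit, rose from 23.8 ± 2.22 CPM to 28.4 ± 1.29, 32.6 ± 1.67 and 35.5 ± 3.46 in the libraries labelled IL-1β, those labelled palmitate and palmitate + IL-1β (SD, n = 4), by 0.26, 0.45 and 0.58 on the log2 scale. Esyt1, a tether of ER and plasma membrane, fell by 0.11 in the libraries labelled palmitate (adjusted p = 0.0353) and by 0.14 in palmitate + IL-1β (adjusted p = 0.00373).

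Of 13 tested release channels and modulators other than the members, 4 rose and 4 fell in the libraries labelled palmitate, 1 rose and 1 fell in those labelled IL-1β, and 5 rose and 3 fell in palmitate + IL-1β. Itpripl2, which resembles the IP3 receptor interacting protein Itprip, rose from 202 ± 11.3 CPM to 422 ± 12.3 in the libraries labelled palmitate and 458 ± 16.1 in palmitate + IL-1β (SD, n = 4). Itprip fell by 0.41 in the libraries labelled palmitate (adjusted p = 3.04e-06) and differed by -0.08 in palmitate + IL-1β (adjusted p = 0.319). Bok, a BCL2 family protein that binds IP3 receptors, fell to 0.505 times its control level in the libraries labelled palmitate and to 0.506 times in palmitate + IL-1β.

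Of 14 tested genes that make or remove IP3, 3 rose and 7 fell in the libraries labelled palmitate (19.8% and 17.5% of all genes), 1 rose and 2 fell in those labelled IL-1β (10.1% and 4.97%), and 2 rose and 5 fell in palmitate + IL-1β (24.8% and 22.5%). The phospholipase Plce1 fell from 76 ± 5.09 CPM to 28.9 ± 1.18 and 26.4 ± 1.99 in the libraries labelled palmitate and palmitate + IL-1β (SD, n = 4), and Plcd3 fell to 0.746 and 0.674 times its control level. P2ry2, a nucleotide receptor that couples to phospholipase C, rose 2.29-fold and 2.35-fold. Of 13 tested plasma membrane channels other than Orai1, 2 rose and 3 fell in the libraries labelled palmitate, 1 rose and 1 fell in those labelled IL-1β, and 3 rose and 4 fell in palmitate + IL-1β. The ATP-gated channel P2rx4 rose 1.51-fold in the libraries labelled palmitate, whereas the T-type channel Cacna1h fell from 4.14 ± 0.48 to 1.92 ± 0.51 CPM (SD, n = 4) and the stretch-gated channel Piezo2 fell to 0.658 times its control level.

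Of 13 tested genes of mitochondrial calcium handling, 4 rose and 3 fell in the libraries labelled palmitate, 0 rose and 1 fell in those labelled IL-1β, and 5 rose and 4 fell in palmitate + IL-1β. The exporter Slc8b1 rose 1.28-fold, the exchanger Letm1 1.21-fold and the uniporter scaffold Mcur1 1.19-fold in the libraries labelled palmitate. Of 10 genes of contacts between ER and mitochondria, 2 rose and 3 fell in the libraries labelled palmitate, 2 fell in those labelled IL-1β, and 2 rose and 4 fell in palmitate + IL-1β. Pacs2 fell by 0.19 and 0.31 on the log2 scale in the libraries labelled palmitate and palmitate + IL-1β, and Fundc1 fell by 0.16 and 0.33.

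Of 13 tested calcium-binding proteins of the ER lumen, 3 rose and 1 fell in the libraries labelled palmitate, 0 were called in those labelled IL-1β (0 at an unadjusted p under 0.05 by edgeR and 0 by DESeq2), and 3 rose and 2 fell in palmitate + IL-1β. The chaperones Hspa5 and Hsp90b1 each rose 1.10-fold in the libraries labelled palmitate and in palmitate + IL-1β, and Rcn2 fell to 0.882 and 0.860 times its control level. Of 16 genes of calmodulin, calcineurin and NFAT, 3 rose and 6 fell in the libraries labelled palmitate, 2 rose and 3 fell in those labelled IL-1β, and 3 rose and 8 fell in palmitate + IL-1β. Rcan1, a calcineurin regulator whose transcription NFAT is known to drive, rose from 36.7 ± 1.23 CPM to 48.7 ± 2.45, 66.0 ± 3.49 and 79.6 ± 5.05 in the libraries labelled IL-1β, those labelled palmitate and palmitate + IL-1β (SD, n = 4), with no overlap with the controls in any of them. Its paralog Rcan2 fell to 14.8 ± 1.30 and 13.9 ± 0.90 CPM from 36.5 ± 0.58 in the libraries labelled palmitate and palmitate + IL-1β, and the transcription factor Nfatc4 fell in all 3 groups, by 0.50, 0.32 and 0.72 on the log2 scale in the libraries labelled palmitate, those labelled IL-1β and palmitate + IL-1β.

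**Figure D5:**
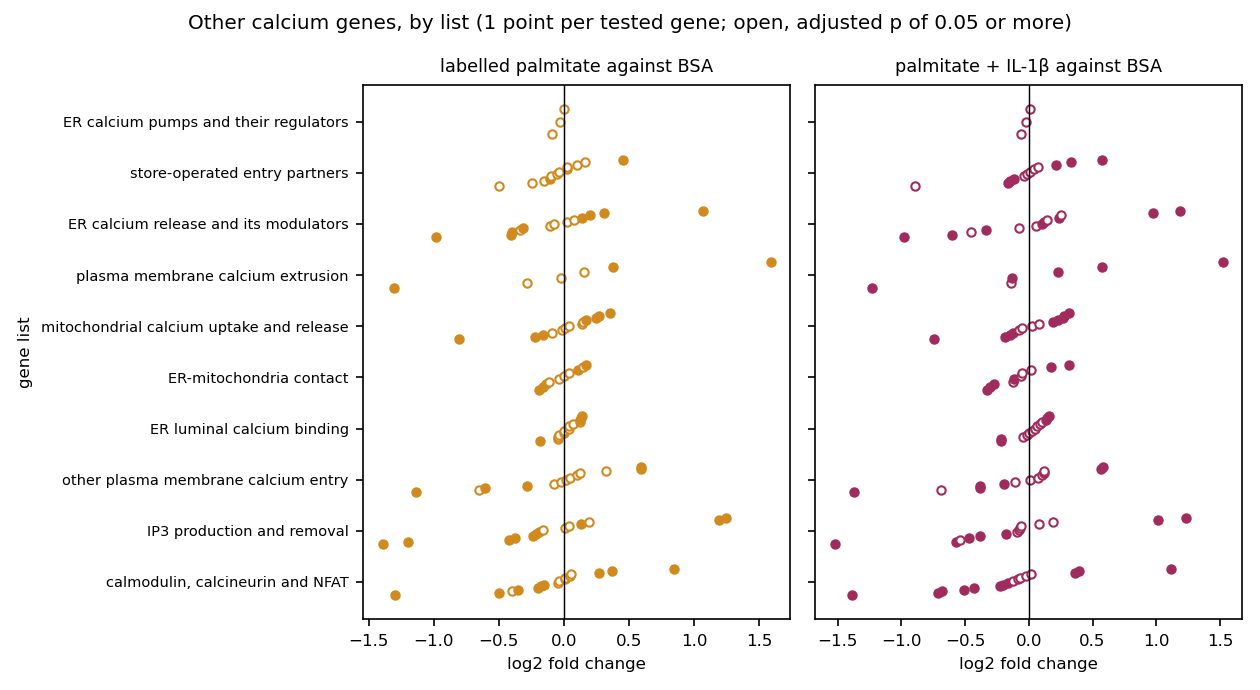
Log2 fold change against BSA (control) of the 113 tested genes of 10 calcium lists, a row per list, in the libraries labelled palmitate (left) and palmitate + IL-1β (right), with open points at an adjusted p of 0.05 or more. Most lists hold genes on both sides of 0, and in the extrusion list Atp2b4 lies at 1.59 and 1.52.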

How the data were processed

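For trimming the authors used Trimmomatic 0.39, for alignment to GRCm39 STAR 2.7.10a, and for strand-aware counting over GENCODE vM33 genes HTSeq 2.0.9. The study's methods describe oligo(dT)-primed SMART-Seq and the labels a stranded total RNA kit, which decides which RNAs were captured. The deposited values are raw counts of 16 libraries, matched by library name. Rows naming no gene, 18.3% to 21.4% of each library, were left out.

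Counts were fitted with edgeR 4.0.16 (R 4.3.3; filterByExpr, minimum count 10; TMM; robust glmQLFit; glmQLFTest), with a mean per group and no covariate. Standard errors are those implied by the test. The common biological coefficient of variation was 6.08%, and chi-square per degree of freedom over the 24 replicate pairs was 2.63 to 18.5, so no pair agreed within sampling noise. Floors cover counting error only, and intervals are 2 SE to either side. The steps were tested on simulated data. Positions and lengths are from GENCODE vM39, which held 56323 of the 56941 genes. Promoter windows are RefSeq's.

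The 9 members, the lists and the tests were chosen with earlier results of these data known. Named from each list were up to 3 called genes with the largest absolute log2 fold change in palmitate against BSA and an average log2 CPM of at least 1, and from the label lists up to 5 called genes of highest level in palmitate against IL-1β. A gene that this rule names is not reported here. Alternatives were DESeq2 1.42.0, 2 other normalizations, 2 other filters, no mitochondrially encoded genes, only the groups compared, each library left out, and, added after seeing the data, 2 libraries left out together and canonical transcript lengths.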

Additional observations from a re-analysis of the deposited data

Results flagged for a closer look

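Of 36 sets of 4 values (9 genes in 4 groups), 5 held a library set apart from the other 3 by Dixon's test for 4 values, which chance does in about 1 in 20. Itpr2 stood at 91.9 CPM in IL-1b replicate 8 (nearest library 74.4) and at 109 CPM in palmitate+IL-1b replicate 15 (nearest 84.2). In that same library Itpr3 stood at 184 CPM (nearest 163) and Orai1 at 7.01 CPM (nearest 6.03). Stim1 stood at 96.2 CPM in BSA replicate 3 (nearest 89.3). The median deviation of the 2872 tested genes with more than 10 kb of exons from their group's mean was 0.06 (log2) in IL-1b replicate 8, the highest of the 16 libraries, 0.03 in BSA replicate 3 and 0.01 in palmitate+IL-1b replicate 15. The part of gene length in these values was not tested.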

How the results depend on the processing

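Of the 24 pairs of member and comparison that were called, 18 stayed called in the same direction under every alternative run (23 or 24 per pair), and of 39 not called, 32 were called under none. No call changed direction. The number of members called in the libraries labelled IL-1β against BSA (control) was 2 in place of 1, adding Itpr1, with no filter and with only the groups compared, and 1 to 2 when a library was left out (2 without palmitate+IL-1b replicate 15). In palmitate + IL-1β against the libraries labelled palmitate it was 1 to 2 when a library was left out (1 without palmitate replicate 12). For the interaction it was 1 in place of 0, the member being Stim1, with upper-quartile normalization (adjusted p = 0.0137), with at least 10 counts in every library (0.0443) and with DESeq2 (0.041), and 0 to 1 when a library was left out (0.0298 without palmitate replicate 9). Over its alternatives the adjusted p of that interaction ran from 0.0137 to 0.166. Itpr2 in the libraries labelled palmitate was called under 6 alternatives, among them the removal of the 2 libraries picked for their high Itpr2. Stim2 in the libraries labelled palmitate against the ones labelled IL-1β lost its call under 7, with an adjusted p of up to 0.143. Upper-quartile normalization lowered the median of all genes by at most 0.08 (log2) and called Stim1 in palmitate + IL-1β against the libraries labelled IL-1β (-0.12, adjusted p = 0.0245). Without length, the ratio of Stim2 to Stim1 in CPM was 0.549 in BSA (control). No paired analysis was run, because the replicate numbers are serial and the labels do not say whether groups shared cultures or mice. The depth of 141 to 578 counts limits Orai1.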
